A study of Mus musculus with 15 samples.

Results

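Between birth and the third postnatal week 66 genes reached their highest level at postnatal day 14 (P14) in laser-captured cerebellar Purkinje cells (PCs), out of 38561 genes counted and 20928 with a count in any sample. A gene was chosen when its mean over the 3 P14 samples was at least 10 CPM (the gene's count per 1000000 counts on genes in that sample) and its lowest P14 sample lay above the highest of the 12 other samples. About 30 such genes are expected by chance according to the rule under which they were chosen. Of 9055 genes that met the minimum level, the 66 made up 0.729%, and the same rule applied to the other time points gave 484 genes at P0, 101 at P4, 70 at P8 and 308 at P21.

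The samples were PCs of C57/BL6 mice (spelled C56/BL6 in the sample labels), described in the study's methods as male. The labels name no treatment or transgene, and each of the 5 ages (P0, P4, P8, P14, P21) had 3 samples that the study calls biological replicates. From P4 on, single PC somata were cut from parasagittal sections, whereas at P0 single cells were hard to isolate and clusters of PCs were taken, so age and the way of cutting cannot be told apart at P0. A soma lies among the processes of Bergmann glia and next to granule neurons, and cut tissue can hold RNA of those cells. Counts on genes ranged from 3409371 to 7814951 per sample and from 5479656 to 5929255 at P14. In samples of many cells, fewer cells of a type and less RNA per cell cannot be told apart.

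PCs are the output neurons of the cerebellar cortex, and in rodents their dendrites grow and receive most of their synapses in the weeks after birth. Glutamate released by parallel fibres of granule neurons and by climbing fibres drives them, and it is cleared by transporters on the PC and on the Bergmann glia that wrap its synapses. In the same weeks Bergmann glia mature and granule neurons settle below the PCs.

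The members were chosen by their CPM at P14 and at the other ages, so each value of P14 beside another age describes the selection and carries no test. Tests between P0, P8 and P21 come from fits without the P14 samples. The rule still used the samples of these ages as its upper bound, without ordering them, so the tests describe genes chosen partly on the same values.

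Most members cleared the threshold by little. The ratio of the lowest P14 sample to the highest other sample ran from 1.0003 to 2.02 with a median of 1.07, and 39 of the 66 had a ratio below 1.1 while 4 reached 1.5. Those 4 were 4930570G19Rik, Pigs, Igfbp6 and Cpne9. The mean at P14 was 1.52 times (median) that of the next highest age, with 7 genes at 2 times or more and 31 below 1.5 times. Just inside the threshold lay Clvs1 (68.5 CPM in the lowest P14 sample against 67.8 in the highest other), Gdf10 (389.8 against 387), Tm2d1 (59.6 against 59.2), Lrpap1 (438.5 against 438.3) and Mmadhc (64.24 against 64.22). Just outside lay Tmx2 (348 against 349), S1pr1 (171 against 172), Sept5 (140.2 against 141), Elovl6 (331 against 333) and Tmem204 (82.6 against 83.3).

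Scaling decided part of the list. With TMM library sizes, which scale on the bulk of genes in place of the total, the rule gave 73 genes of which 43 were among the 66, and with DESeq2 size factors it gave 69 of which 41 were. Of the 66, 40 passed under all 3 scalings and 26 did not. For 22 of those 26 the next highest age was P21, whose TMM factors (0.859 to 0.894) were lower than those of P14 (0.923 to 0.959), and 25 of the 26 had a ratio below 1.1. All 23 members with the largest ratios were among the 40. P21 replicate 3 held the highest other value for 23 members, and the rule gave 123 genes without that sample.

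**Figure D1:**
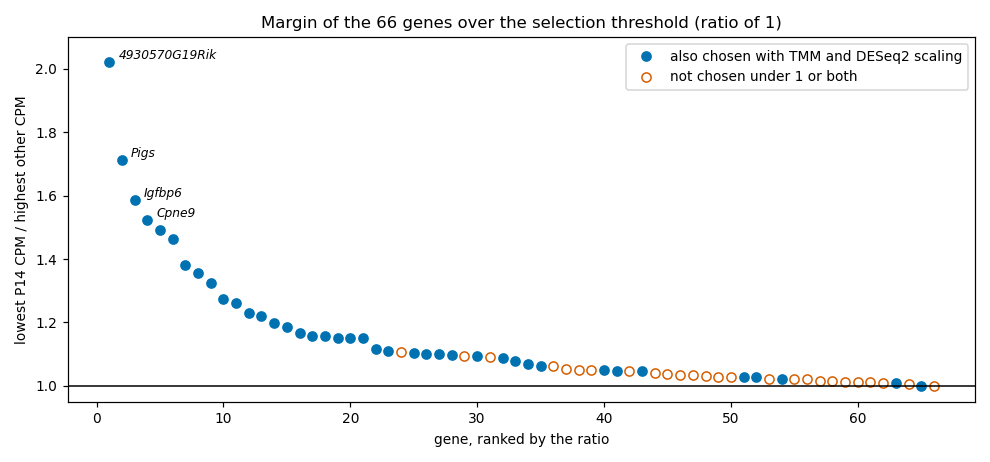
Ratio of the lowest P14 CPM to the highest CPM of the other 12 samples for each of the 66 genes, ranked. Filled blue points are the 40 genes that TMM and DESeq2 scaling also choose, open orange points the other 26, and the black line at 1 is the selection threshold; the open points lie close to the line.

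The same rule was also applied with 1 replicate number left out at every age, and the left-out samples were then read. The choice on 10 samples gave 250, 286 and 263 genes with replicate 1, 2 or 3 left out. P14 was the highest of the 5 left-out samples for 40.8%, 37.4% and 43.3% of them, against 14.4%, 14.9% and 15.5% of all genes with the minimum level in the P14 samples that were used. For the remaining genes so chosen, another age was highest in the samples that had not been used. The 250, 286 and 263 genes held 66, 65 and 65 of the members, and the rest were not members. For members P14 is highest in the left-out samples by the rule, so these shares are no separate test of the 66.

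The heat map of all members by sample shows how alike and how unlike their courses were. The next highest age was P21 for 43 of the 66 genes (65.2%, against 25.6% of all 9055 genes at the minimum level). It was P8 for 14, P4 for 6 and P0 for 3. Among the 40 members kept under all 3 scalings it was P21 for 21 (52.5%). The rule bounded the samples outside P14 for the members and not for all 9055 genes. P0 was the lowest age for 42 genes (63.6% against 27.0%), and the mean was higher at P4 than at P0 and higher again at P8 in 34 (51.5% against 22.2%). At P21 the median member stood at 63.9% of its P14 mean, at P8 at 53.6%, at P4 at 32.6% and at P0 at 25.8%. P14 replicate 3 was the highest P14 sample for 33 of the 66 members, replicate 2 for 20 and replicate 1 for 13, whereas over all 9055 genes replicate 3 was highest for 33.0%.

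**Figure D2:**
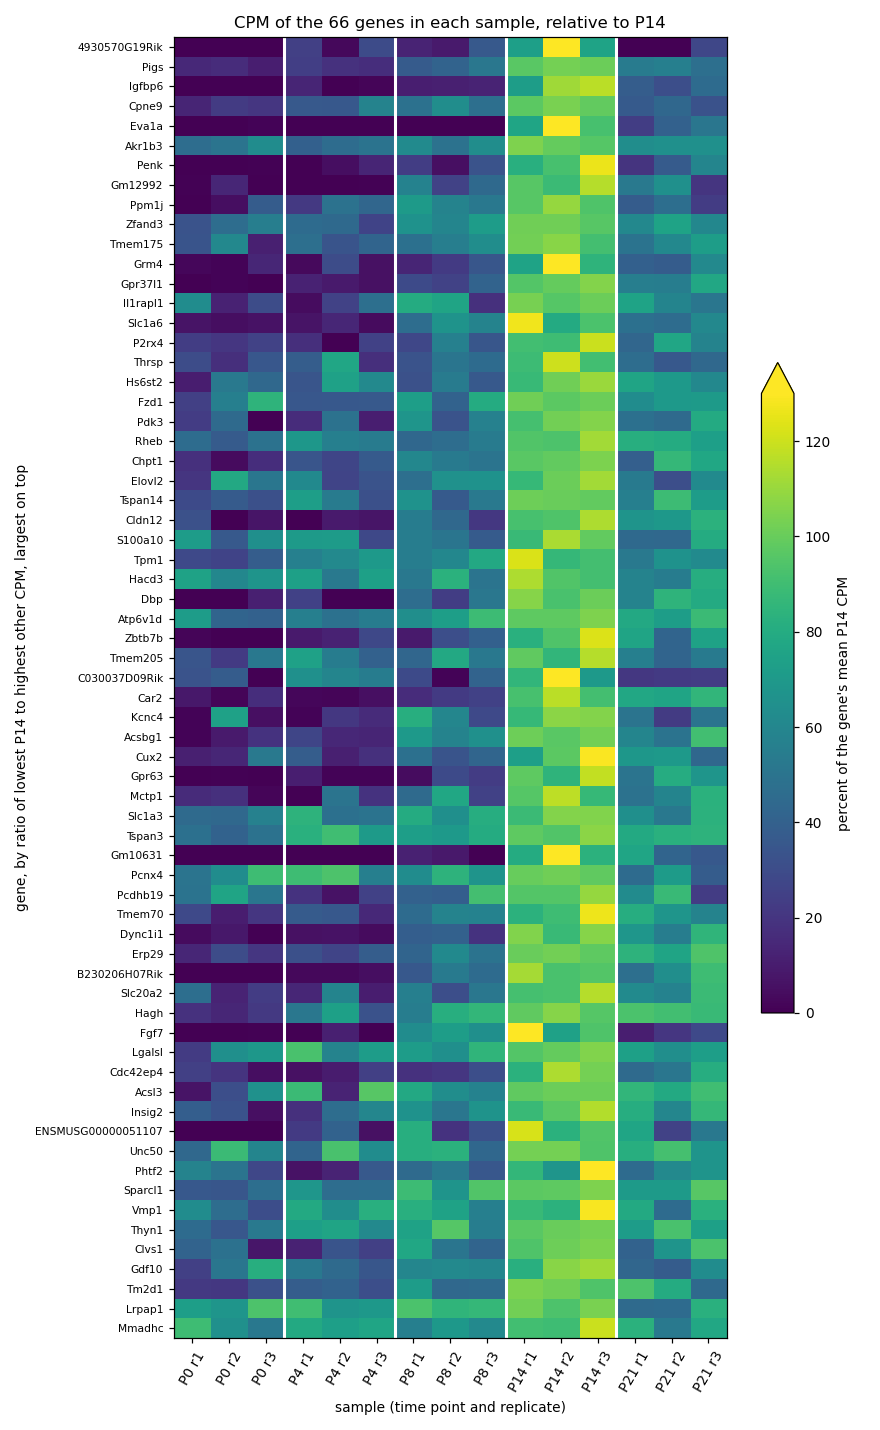
Heat map of the 66 genes (vertical axis, ordered by the ratio of the lowest P14 to the highest other sample) in the 15 samples (horizontal axis, 3 replicates at each age), coloured by the CPM as a percentage of the gene's mean at P14. The P14 columns are brightest by selection, the P21 columns are the next brightest for 43 genes, and the P0 columns are the darkest for 42.

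Promoter sequence is shown for 3 members described below: the glutamate transporters of PCs and of glia, and Rheb. Of the 66 members, 51 had a promoter in the RefSeq table (build GRCm38.p6), each a window of 300 bases around the transcript start and mostly upstream of it, 5′ to 3′ on the strand of the gene. Capitals mark matches on either strand to the motifs searched, where a match is a run of letters and not a shown site. In the first, the capitals are GC boxes and an E-box, in the second a TATA box on the reverse strand and a GC box, and in the third an E-box and a GC box. The windows lie at chr10:78780246-78780545 (plus strand), chr15:8710758-8711057 (minus strand) and chr5:24842312-24842611 (minus strand).
Slc1a6: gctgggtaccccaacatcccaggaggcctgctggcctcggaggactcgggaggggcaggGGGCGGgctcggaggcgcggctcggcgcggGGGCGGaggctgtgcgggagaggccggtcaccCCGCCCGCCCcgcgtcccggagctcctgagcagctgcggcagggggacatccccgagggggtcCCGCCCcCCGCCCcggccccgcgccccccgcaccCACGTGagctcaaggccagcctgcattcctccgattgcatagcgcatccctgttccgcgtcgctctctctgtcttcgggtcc
Slc1a3: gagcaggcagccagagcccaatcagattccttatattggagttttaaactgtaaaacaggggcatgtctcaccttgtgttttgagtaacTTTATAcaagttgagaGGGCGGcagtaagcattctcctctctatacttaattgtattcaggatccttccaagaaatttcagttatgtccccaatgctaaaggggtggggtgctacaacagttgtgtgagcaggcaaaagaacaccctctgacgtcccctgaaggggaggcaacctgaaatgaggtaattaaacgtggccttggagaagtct
Rheb: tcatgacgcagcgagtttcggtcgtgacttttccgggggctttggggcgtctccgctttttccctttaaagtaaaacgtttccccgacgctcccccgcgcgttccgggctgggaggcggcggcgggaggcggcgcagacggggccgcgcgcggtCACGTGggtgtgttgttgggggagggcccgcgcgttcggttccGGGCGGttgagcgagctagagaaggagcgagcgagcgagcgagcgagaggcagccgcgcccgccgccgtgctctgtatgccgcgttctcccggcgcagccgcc

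Motif shares in the members are given beside those of genes at the minimum level and of all genes in the table. The GC box (GGGCGG), the run of letters bound by Sp1-type factors, was present in 37 of 51 members (72.5%), in 72.1% of 6993 matched genes at the minimum level and in 38.2% of all 27025 genes in the table. The E-box (CACGTG) was present in 6 members (11.8%, against 12.6% and 8.09%), which were C030037D09Rik, Eva1a, Gpr63, Hacd3, Rheb and Slc1a6. The TATA box (TATAAA) was present in 5 members (9.80%, against 8.11% and 15.7%) and the nuclear receptor half-site (AGGTCA) in 5 (9.80%, against 13.8% and 18.1%). The cyclic AMP response element (TGACGTCA) was in 1 member, C030037D09Rik (1.96%, against 3.90% and 2.03%), and the D-box (TTATGTAA) in 1, Mctp1 (1.96%, against 0.686% and 1.11%). The full nuclear factor I site (TTGGC, 5 bases, GCCAA) was in none, against 0.0286% and 0.0444%. No letters of 1 motif were counted under another, although neighbouring GC boxes in the Slc1a6 promoter overlapped each other.

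The members are described by role, in groups made once the members were known. Glutamate uptake and sensing held 3 members. Slc1a6 (ENSMUSG00000005357, chr10:78780496-78814765, plus strand) encodes EAAT4, the glutamate transporter of PC dendrites and spines. Its CPM was 105, 74.0 and 103 at P0, 109, 222 and 63.2 at P4, 743, 1067 and 929 at P8, 2025, 1265 and 1484 at P14 and 768, 734 and 966 at P21. All P8 and P21 samples lay above all P0 and P4 samples, and all 3 P14 samples above both. The rise from P0 to P8 exceeded the spread between replicates (log2 fold change 3.38, standard error 0.40, adjusted p = 1.55e-04, edgeR quasi-likelihood test), whereas P21 and P8 overlapped (log2 fold change 0.09, standard error 0.36, adjusted p = 0.944, edgeR). Per kilobase of exon Slc1a6 had the highest P14 level of all members, 739.6 CPM per kilobase, above Sparcl1 at 702 and Gpr37l1 at 624.

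Slc1a3 (ENSMUSG00000005360, chr15:8634124-8710764, minus strand) encodes GLAST, the glutamate transporter of Bergmann glia, and had the highest P14 CPM of all members. Its CPM was 1483, 1451 and 1891 at P0, 2776, 1584 and 1638 at P4, 2633, 2134 and 2669.9 at P8, 2913, 3495 and 3480.1 at P14 and 2138, 1716 and 2746 at P21. P4 replicate 1 and P21 replicate 3 came close to the lowest P14 sample, and the P4, P8 and P21 samples overlapped. P21 exceeded P0 (log2 fold change 0.80, standard error 0.22, adjusted p = 0.0180, edgeR), a call that was lost when only total counts were used for scaling (adjusted p = 0.176), and P8 against P0 did not pass (adjusted p = 0.0689, edgeR).

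Grm4 (ENSMUSG00000063239, chr17:27422387-27521403, minus strand) encodes mGluR4, the glutamate receptor on parallel fibre terminals. Its CPM was 3.84, 1.78 and 22.2 at P0, 5.26, 48.0 and 9.10 at P4, 21.9, 35.6 and 55.8 at P8, 120.4, 224 and 135 at P14 and 63.9, 60.5 and 97.8 at P21. P14 replicate 2 stood above the other 2 P14 samples, and all P21 samples lay above all P0 samples. P21 exceeded P0 (log2 fold change 3.35, standard error 0.96, adjusted p = 0.0227, edgeR). The sum of the 10 granule neuron markers was also highest in P14 replicate 2, with 629, 1577 and 706 CPM in the 3 P14 samples, 693 to 1215 at P8 and 376 to 772 at P21. Its mean was 979 CPM at P8 and 971 at P14. Of the 10, 6 (Gabra6, Cbln1, Cbln3, Etv1, Grin2c and Fat2) had their highest mean at P14, with a wide spread between the P14 samples, against 14.8% of all genes at the minimum level. Neurod1, Zic1 and Zic2 had lower means at P14 than at P8, Slc17a7 was highest at P21, and none of the 10 was at 0 at P14. The part of granule neuron RNA in the level of Grm4 was not tested. Of the 27 glutamate receptor and scaffold genes listed, Grm4 was the only member. Among the 26 of them tested, 6 rose and none fell from P0 to P8, 6 rose and 2 fell from P8 to P21, and 11 rose and 2 fell from P0 to P21 (edgeR). Over all genes tested, 4.44% rose and 1.38% fell from P0 to P8, 2.88% rose and 4.29% fell from P8 to P21, and 10.8% rose and 9.97% fell from P0 to P21.

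**Figure D3:**
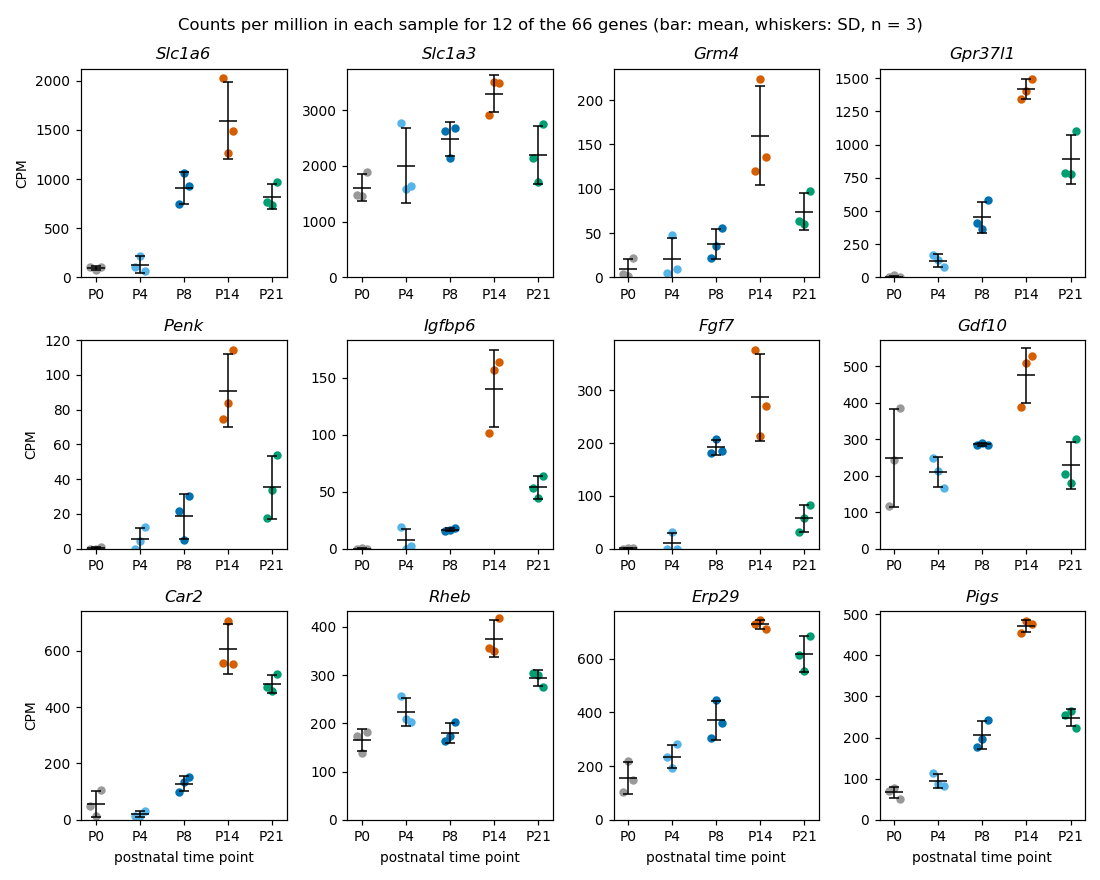
CPM (vertical axis, starting at 0, scaled for each gene) of 12 of the 66 genes in each of the 15 samples by postnatal age, with 1 point per sample, the mean as a bar and the SD as whiskers (n = 3). P14 is highest in each panel by selection. Slc1a6 and Fgf7 are already high at P8. At P21 Erp29, Car2 and Rheb stay closer to P14, and Fgf7 is back below its P8 level.

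Secreted factors held 5 members. Penk (ENSMUSG00000045573, chr4:4133531-4138819, minus strand) encodes the precursor of the enkephalin opioid peptides. Its CPM was 0, 0 and 0.907 at P0, 0, 4.22 and 12.3 at P4, 21.4, 4.69 and 30.1 at P8, 74.5, 83.6 and 115 at P14 and 17.9, 34.0 and 54.0 at P21. It was at or near 0 at P0 and varied widely among the samples of each later age. Both P8 and P21 exceeded P0 (log2 fold change 5.96, standard error 1.58, adjusted p = 0.0415 for P8 and log2 fold change 7.12, standard error 1.65, adjusted p = 0.00680 for P21, edgeR), but the P8 call was lost with limma-voom (adjusted p = 0.0644) and with total counts only (adjusted p = 0.0505). The exons of Penk overlap those of A830012C17Rik on the other strand, and the strand setting of the counting is not given in the sources used here, so their reads may not be fully separated.

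Igfbp6 (ENSMUSG00000023046, chr15:102144362-102149511, plus strand) encodes a binding protein that favours insulin-like growth factor 2. Its CPM was 0, 0.223 and 0 at P0, 18.9, 0 and 2.60 at P4, 15.5, 16.04 and 18.1 at P8, 102, 157 and 164 at P14 and 53.7, 44.1 and 64.1 at P21. A single count was found over the 3 P0 samples, against 252 over the 3 P8 samples and 877 over the 3 P21 samples, ratios of 226 (exact 95% binomial interval 40.1 to 8946, which covers counting error only, as PCR copies are not independent molecules) and 746 (134 to 29493). The adjusted p was 0.0166 for P8 and 0.00129 for P21 against P0 (edgeR), and without P0 replicate 1 or 3 the P8 call was lost (adjusted p = 0.0586 and 0.0573).

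Fgf7 (ENSMUSG00000027208, chr2:126034658-126091185, plus strand) encodes a fibroblast growth factor that has been linked to the organisation of inhibitory synapses. Its CPM was 0.213, 0.223 and 1.81 at P0, 0, 32.1 and 0 at P4, 182, 208 and 186 at P8, 377, 214 and 271 at P14 and 31.1, 58.7 and 83.1 at P21. It was near 0 at P0 and in 2 of the 3 P4 samples, and all 3 P21 samples lay below all P8 samples. The rise from P0 to P8 passed (log2 fold change 8.08, standard error 1.65, adjusted p = 0.0101, edgeR). The lower level at P21 than at P8 did not (log2 fold change -1.49, standard error 1.15, adjusted p = 0.552, edgeR), although limma-voom called it (adjusted p = 0.0303).

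Gdf10 (ENSMUSG00000021943, chr14:33923587-33937983, plus strand) encodes a growth factor of the BMP family found in Bergmann glia, and it barely passed the rule. Its CPM was 118, 243 and 387 at P0, 248, 213 and 167 at P4, 285, 290.2 and 283 at P8, 389.8, 508 and 529.9 at P14 and 204, 181 and 301 at P21. P0 replicate 3 came close to the lowest P14 sample, and no contrast between the other ages passed (adjusted p between 0.693 and 0.951, edgeR). Sparcl1 (ENSMUSG00000029309, chr5:104079111-104113733, minus strand) encodes hevin, a synapse-organising matrix protein made by astrocytes. Its CPM was 738, 719 and 972 at P0, 1403, 955 and 964 at P4, 1841, 1387 and 1950.4 at P8, 2004, 2019 and 2162 at P14 and 1456, 1459 and 1980.1 at P21. All P8 and P21 samples lay above all P0 samples, P8 replicate 3 and P21 replicate 3 came close to the lowest P14 sample, and P8 exceeded P0 (log2 fold change 1.198, standard error 0.20, adjusted p = 0.00278, edgeR).

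Of the 44 growth factor and receptor genes listed, Fgf7 and Gdf10 were the members. Among the 40 tested, 4 rose and none fell from P0 to P8, none rose and 3 fell from P8 to P21, and 7 rose and 5 fell from P0 to P21 (edgeR). The shares over all genes tested were 4.44% and 1.38%, 2.88% and 4.29%, and 10.8% and 9.97% in the same order, and several of these counts were near them. Of the 23 matrix genes listed, Sparcl1 was the only member. Among the 21 tested, 2 rose and none fell from P0 to P8, 1 rose and 5 fell from P8 to P21, and 3 rose and 7 fell from P0 to P21 (edgeR), to be read against the same shares.

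Receptors and channels held 6 members. Gpr37l1 (ENSMUSG00000026424, chr1:135160234-135167681, minus strand) encodes an orphan receptor of astrocytes and Bergmann glia. Its CPM was 0.640, 15.8 and 0.227 at P0, 173, 131 and 79.1 at P4, 411, 363 and 583 at P8, 1347, 1406 and 1497 at P14 and 788, 777 and 1104 at P21. The samples of the 5 ages did not overlap, and P21 lay between P8 and P14. It rose from P0 to P8 (log2 fold change 6.45, standard error 0.88, adjusted p = 5.17e-04, edgeR), while P21 did not pass against P8 (adjusted p = 0.355, edgeR).

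Gpr63 (ENSMUSG00000040372, chr4:24966407-25009233, plus strand), an orphan receptor gene, had a CPM of 0.213, 0.446 and 0 at P0, 6.83, 0.768 and 0.929 at P4, 2.76, 18.6 and 14.6 at P8, 61.7, 53.3 and 74.5 at P14 and 31.7, 50.8 and 43.0 at P21. It had 3 counts over the P0 samples, 186 over the P8 samples and 691 over the P21 samples, which gives ratios of 55.5 (exact 95% interval 18.7 to 272) and 196 (66.8 to 952), with adjusted p = 0.0147 and 7.27e-04 (edgeR). Its exons overlap 2 other counted genes, C230012O17Rik and Gm11906. Kcnc4 (ENSMUSG00000027895, chr3:107438303-107459552, minus strand) encodes Kv3.4, a fast potassium channel subunit, and was low throughout, with a mean of 17.7 ± 2.01 CPM (SD, n = 3) at P14, 10.01 ± 4.71 at P8 and 7.20 ± 2.81 at P21. No contrast passed for it, and it was the only member among 38 potassium channel genes, of which 34 were tested. Of those 34, 8 rose and none fell from P0 to P8 (4.44% and 1.38% of all genes tested), 4 rose and 2 fell from P8 to P21 (2.88% and 4.29%), and 16 rose and 3 fell from P0 to P21 (10.8% and 9.97%, edgeR).

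Il1rapl1 (ENSMUSG00000052372, chrX:86740870-88115645, minus strand), a synaptic adhesion receptor, averaged 24.9 ± 0.963 CPM (SD, n = 3) at P14 and 15.4 ± 3.11 at P21. The purinergic receptor P2rx4 averaged 91.8 ± 15.7 and 54.5 ± 15.4, and the Wnt receptor Fzd1 107 ± 2.37 and 72.9 ± 4.49. None of these 3 passed a contrast between the other ages.

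Lipid and sterol metabolism held 7 members with enzymes of fatty acid activation and elongation. Acsbg1, an acyl-CoA synthetase abundant in glia, was 3.84, 25.6 and 51.5 at P0, 72.3, 38.4 and 36.0 at P4, 186, 155 and 175 at P8, 271, 258 and 274 at P14 and 159, 133 and 243 at P21, in CPM. The P8 samples lay above all P0 and P4 samples and P21 replicate 3 approached P14. Acsbg1 (log2 fold change 2.78, standard error 0.61, adjusted p = 0.0165, edgeR) and Chpt1, which makes phosphatidylcholine (log2 fold change 2.17, standard error 0.54, adjusted p = 0.0300, edgeR), rose from P0 to P8. Chpt1 lost this call with limma-voom (adjusted p = 0.0529) and its exons overlap those of Sycp3. Insig2, which holds the sterol sensor in the endoplasmic reticulum, exceeded P0 at P21 (adjusted p = 0.0303, edgeR), a call lost with total counts only (adjusted p = 0.0665) and in the fit with the replicate number as a block (adjusted p = 0.0540). Elovl2, Acsl3, Hacd3 and Thrsp passed no contrast between the other ages, and none of the 21 listed genes of cholesterol synthesis was a member.

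The secretory pathway and lysosome held 9 members. Pigs (ENSMUSG00000041958, chr11:78328415-78342782, plus strand) encodes a subunit of the complex that attaches proteins to their glycolipid anchor. Its CPM was 69.6, 78.2 and 51.5 at P0, 113, 86.9 and 81.0 at P4, 177, 196 and 243 at P8, 455, 484 and 476 at P14 and 256, 266 and 224 at P21. The 3 P14 samples lay close together and far from the rest, with a P14 mean of 472 ± 14.96 (SD, n = 3) against 249 ± 21.6 at P21. All P8 samples lay above all P4 samples, and Pigs rose from P0 to P8 (log2 fold change 1.74, standard error 0.24, adjusted p = 5.37e-04, edgeR) without a call from P8 to P21 (adjusted p = 0.219, edgeR).

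Erp29 (ENSMUSG00000029616, chr5:121428590-121452506, minus strand) encodes a chaperone of the endoplasmic reticulum. Its CPM was 102, 219.7 and 148 at P0, 232, 194 and 281 at P4, 304, 448 and 359 at P8, 728, 745 and 709.6 at P14 and 612, 554 and 686 at P21. P8 lay above P0, and P21 above P8, without overlap. Erp29 rose from P0 to P8 (log2 fold change 1.35, standard error 0.26, adjusted p = 0.00620, edgeR) and from P8 to P21 (log2 fold change 0.98, standard error 0.25, adjusted p = 0.0306, edgeR). The second call was lost with total counts only (adjusted p = 0.105) and when any P21 sample or P8 replicate 1 or 3 was left out (adjusted p between 0.0653 and 0.142). Its exons overlap Naa25 and Tmem116. Lrpap1, the chaperone of lipoprotein receptors, lay at 467 ± 24.98 CPM (SD, n = 3) at P14, 412 ± 21.1 at P8 and 269.8 ± 101 at P21. Tmem175, a lysosomal ion channel, averaged 68.4 ± 5.51 at P14 against 41.6 ± 7.68 at P21. Neither passed a contrast between the other ages.

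Mitochondria and metabolism held 6 members, led by Car2 (ENSMUSG00000027562, chr3:14886273-14900770, plus strand), which encodes a carbonic anhydrase of the cytosol. Its CPM was 49.9, 11.8 and 105 at P0, 14.98, 11.6 and 32.1 at P4, 100.1, 133 and 153 at P8, 557, 708 and 554 at P14 and 472, 459 and 518 at P21. The P14 and P21 samples all lay at least 3 times above the highest P8 sample. Car2 rose from P8 to P21 (log2 fold change 2.16, standard error 0.55, adjusted p = 0.0288, edgeR), and the call was lost when any 1 of the P8 or P21 samples was left out (adjusted p between 0.0714 and 0.125). Hagh, which detoxifies methylglyoxal products, rose from P0 to P8 (log2 fold change 2.14, standard error 0.32, adjusted p = 0.00122, edgeR) and kept the largest share of its P14 mean at P21, 90.6%. Akr1b3, aldose reductase, averaged 80.9 ± 3.67 CPM (SD, n = 3) at P14 against 52.4 ± 0.716 at P21 and 47.1 ± 6.58 at P8, with no contrast passing between the other ages.

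Signalling and the cytoskeleton held 8 members. Rheb (ENSMUSG00000028945, chr5:24802823-24842624, minus strand) encodes the small GTPase that activates mTORC1, a kinase complex of cell growth. Its CPM was 173, 139 and 183 at P0, 258, 209.7 and 203 at P4, 163, 174 and 204 at P8, 356, 351 and 419 at P14 and 305, 300.4 and 275 at P21. The P0 and P8 samples overlapped, whereas every P21 sample lay above every sample from P0 to P8. Rheb rose from P8 to P21 (log2 fold change 0.96, standard error 0.19, adjusted p = 0.00736, edgeR) and not from P0 to P8 (adjusted p = 0.603, edgeR). It was the only one of the 4 members called from P8 to P21 that was called with each of the 12 samples left out.

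Cpne9 (ENSMUSG00000030270, chr6:113282307-113305627, plus strand) encodes a copine, a calcium-dependent membrane-binding protein. Its CPM was 74.0, 123 and 113 at P0, 200.2, 195 and 319 at P4, 265, 350.3 and 261 at P8, 533, 568 and 542 at P14 and 202, 237 and 179 at P21. P14 lay above both neighbours without overlap, P21 lay between P0 and P8, and Cpne9 rose from P0 to P8 (log2 fold change 1.61, standard error 0.26, adjusted p = 0.00197, edgeR). Dync1i1, a neuronal subunit of the dynein motor, rose from P0 to P8 (log2 fold change 3.06, standard error 0.74, adjusted p = 0.0265, edgeR), as did Tpm1, a tropomyosin (log2 fold change 1.17, standard error 0.24, adjusted p = 0.0113, edgeR). Cdc42ep4, an effector of Cdc42 found in Bergmann glia, exceeded P0 at P21 (log2 fold change 2.19, standard error 0.59, adjusted p = 0.0166, edgeR). Ppm1j, a protein phosphatase, averaged 23.3 ± 1.97 CPM (SD, n = 3) at P14 against 14.1 ± 2.25 at P8 and passed no contrast.

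Transcription factors held 3 members. Dbp, a factor that follows the circadian clock, was 0, 0 and 2.72 at P0, 6.04, 0 and 0 at P4, 11.2, 5.67 and 12.53 at P8, 25.8, 22.4 and 24.4 at P14 and 14.1, 20.5 and 19.3 at P21, in CPM. Cux2 averaged 98.8 ± 27.5 CPM (SD, n = 3) at P14 and 59.9 ± 14.8 at P21, and Zbtb7b 11.2 ± 2.34 and 7.20 ± 2.19. Only Zbtb7b passed a contrast, with 1 count over the P0 samples against 114 over the P21 samples, a ratio of 97.0 (exact 95% interval 17.1 to 3863, adjusted p = 0.0116, edgeR). None of the 32 listed nuclear receptors and PC transcription factors, Rora among them, was a member, nor was any of the 17 activity-induced genes.

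The other 19 members were genes without a role assigned here. 4930570G19Rik (ENSMUSG00000085084, chr3:156546753-156561746, minus strand) had the widest margin at a low level, with a CPM of 0 in all 3 samples at P0, 3.68, 0.384 and 4.46 at P4, 1.91, 1.37 and 5.43 at P8, 10.96, 22.6 and 11.3 at P14 and 0, 0 and 4.14 at P21. It had no count at P0, and the 45 counts over the P8 samples are at least 13.4-fold higher than the 3 counts that an absence of reads allows over the P0 samples, with no contrast passing. Eva1a (ENSMUSG00000035104, chr6:82041043-82093099, plus strand), a regulator of autophagy and cell death, had a CPM of 0, 0 and 0.227 at P0, 0 in all 3 samples at P4, 0 in all 3 samples at P8, 15.3, 26.3 and 18.5 at P14 and 4.69, 8.10 and 10.3 at P21. With 1 count at P0, none at P4 or P8 and 133 over the P21 samples, P21 was at least 42.1-fold higher than P8 by the same floor (adjusted p = 0.0433, edgeR), but the call was lost in each fit that left out a P8 or P21 sample (adjusted p between 0.106 and 0.143) and without the filter on low counts (adjusted p = 0.0695). Eva1a overlaps Gm15864 on the other strand.

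B230206H07Rik (ENSMUSG00000086844, chr7:141359141-141365110, minus strand) had a CPM of 0, 0.223 and 0 at P0, 3.42, 3.71 and 5.76 at P4, 44.8, 66.7 and 56.7 at P8, 141, 116 and 119 at P14 and 59.5, 80.5 and 112 at P21. It was at or next to 0 at P0 and well above it in every P8 sample, with 1 count over the P0 samples against 855 over the P8 samples, a ratio of 765 (exact 95% interval 137 to 30269.5). The adjusted p of 8.84e-06 (edgeR) was the smallest of the members for P8 against P0. Its exons overlap Eps8l2 on the other strand. ENSMUSG00000051107, an identifier that is not in the annotation used here, had no count at P0 and a P8 level at least 29.8-fold above the floor (adjusted p = 0.0189, edgeR). Gm10631, also without a count at P0, exceeded the floor at least 22.7-fold at P21 (adjusted p = 0.0331, edgeR), and this call was lost without any 1 of the P0 or P21 samples. Tspan3, a tetraspanin, rose from P0 to P8 (log2 fold change 0.80, standard error 0.17, adjusted p = 0.0149, edgeR). Gm12992 and Zfand3 passed no contrast, with P14 means of 31.9 ± 4.39 and 88.2 ± 2.80 CPM (SD, n = 3).

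Between the ages other than P14, 18 of the members rose from P0 to P8, 4 from P8 to P21 and 33 from P0 to P21, and none fell. All 66 passed the filter on low counts in the 12 samples outside P14 and were among the 13906 genes tested. The 18 that rose from P0 to P8 were 27.3% of the members, against 4.44% of all genes tested and 6.48% of those with a P14 mean of at least 10 CPM. None fell in edgeR at an adjusted or an unadjusted p of 0.05, nor in DESeq2 or limma-voom at the adjusted one, where 1.38% of all genes and 1.66% of those at the minimum level fell in edgeR. The median log2 fold change was 0.97 in the members, 1.05 with genes without a count in 1 group set at their bound, and -0.0025 over all genes, and 62 of the 66 values were above 0. The 18 were Slc1a6, Igfbp6, Hagh, Gpr37l1, Fgf7, Sparcl1, Erp29, Dync1i1, Cpne9, Acsbg1, Tspan3, Tpm1, Gpr63, Pigs, Penk, ENSMUSG00000051107, Chpt1 and B230206H07Rik.

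From P8 to P21 the members differed less. Only Car2, Rheb, Erp29 and Eva1a rose (6.06% of the members, against 2.88% of all genes tested and 4.27% of those at the minimum level), a share close to the background. None fell in edgeR at an adjusted or an unadjusted p of 0.05 (4.29% of all genes and 4.95% of those at the minimum level fell), none with DESeq2, and 1 with limma-voom, which was Fgf7. The median log2 fold change was 0.47 in the members, also with the bound, and -0.083 over all genes. Limma-voom called 8 members higher, the 4 above with Gpr37l1, Dync1i1, Gpr63 and Cdc42ep4, and leaving out 1 sample at a time left between 1 and 4 calls. The shares of all genes called in those fits are not given here.

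From P0 to P21, 33 of the 66 members rose, against 10.8% of all genes tested and 15.3% of those at the minimum level, and none fell (9.97% of all genes and 10.4% of those at the minimum level fell), also at an unadjusted p of 0.05 and with DESeq2 and limma-voom. The median log2 fold change was 1.62 in the members, also with the bounds, and -0.11 over all genes. In all, 33 members passed none of the 3 contrasts. Scaling on total counts moved the median of all genes to -0.33 from P8 to P21 and -0.47 from P0 to P21. With it 17, 3 and 28 members rose in the 3 contrasts. The share of all genes that rose under this scaling is not given here, so these counts have no background beside them. Of the 40 members kept under all 3 scalings, a restriction added after the values were seen, 10 rose from P0 to P8, 3 from P8 to P21 and 16 from P0 to P21, and none fell. Over all genes tested, 4.44%, 2.88% and 10.8% rose in the same order, and 1.38%, 4.29% and 9.97% fell.

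**Figure D4:**
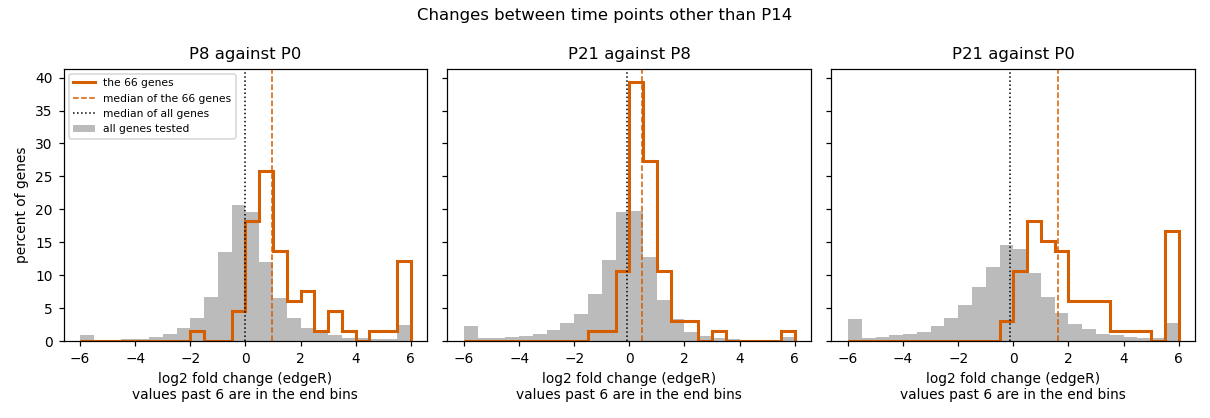
Share of genes (vertical axis, percent) by edgeR log2 fold change (horizontal axis, extreme values placed in the end bins) for P8 against P0, P21 against P8 and P21 against P0, with all 13906 genes tested in grey and the 66 members as an orange line. The dashed orange and dotted black lines are the medians, 0.97 and -0.0025, 0.47 and -0.083, and 1.62 and -0.11.

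The rule keeps out every gene with a high sample outside P14, which also limits the spread of the members among those 12 samples. The genes behind the background shares were not chosen in this way. A difference of the members from those shares, and the absence of falls, can therefore follow from the choice itself, and this was not tested. The contrasts against P0 share their P0 samples, and they set single somata against clusters of PCs.

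Markers of PCs and of glia had different courses over the 5 ages. The 10 PC markers summed to 5991 to 7733 CPM at P0, 22997 to 25437 at P8, 36346 to 41694 at P14 and 39621 to 47761 at P21, none was at 0 at P14, and 2 of the 10, Slc1a6 and Calb1, had their highest mean at P14, a share near the 14.8% of all genes at the minimum level. The 12 markers of Bergmann glia and astrocytes summed to 8795 to 10846 CPM at P8, 6736 to 7359 at P14 and 3568 to 5539 at P21, and none was at 0 at P14. Without the members Slc1a3 and Gdf10 the other 10 summed to 6370.2 to 7893 CPM at P8, 3316 to 3433 at P14 and 1671 to 2492 at P21, ranges that did not overlap.

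The glial markers did not share 1 course. Of the 12, 4 had their highest mean at P8 (Aqp4, Gfap, Aldh1l1 and Fabp7), 4 at P14 (Gdf10, Slc1a3, Hopx and Gja1, with 14.8% of all genes at the minimum level highest at P14) and 4 at P21 (Sept4, Slc1a2, Gjb6 and Glul). Fabp7, a marker of young glia, had a mean of 4838 CPM at P8 against 1033 at P14 and 163 at P21. The glial markers that are not members summed to less at P14 than at P8 mostly through Fabp7. Of them, Aqp4, Gfap, Aldh1l1 and Fabp7 had lower means at P14 than at P8, whereas Sept4, Slc1a2, Hopx, Gjb6, Gja1 and Glul had higher ones. The members known from astrocytes or Bergmann glia, Slc1a3, Gdf10, Gpr37l1, Sparcl1, Acsbg1 and Cdc42ep4, stood at their highest at P14 by selection. The part of glial RNA in the levels of these 6 members was not tested.

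**Figure D5:**
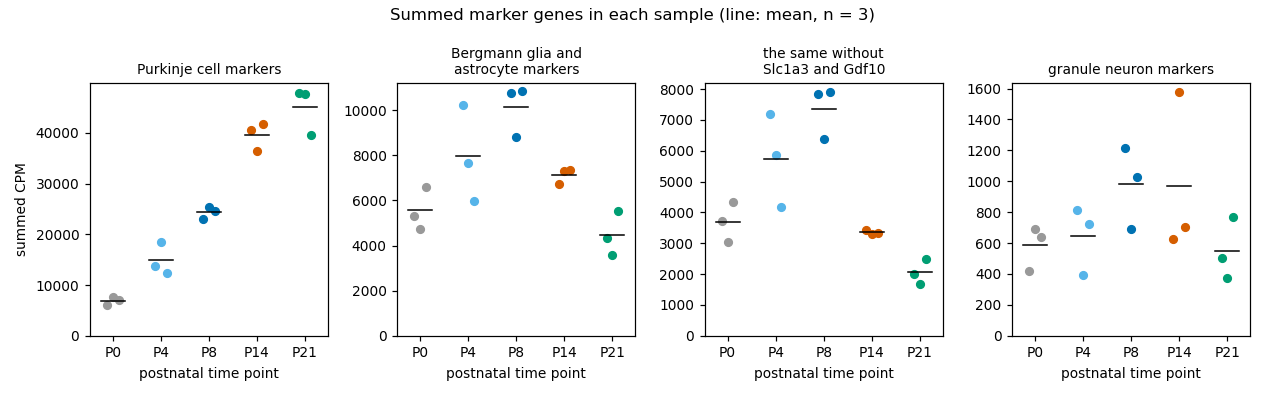
Summed CPM (vertical axes, starting at 0, scaled for each panel) of the markers of PCs, of Bergmann glia and astrocytes with and without the members Slc1a3 and Gdf10, and of granule neurons in each sample by postnatal age, with the mean of the 3 samples as a line. PC marker sums have their highest mean at P21, and glial marker sums have theirs at P8, where Fabp7 is the largest part. For granule neurons, 1 of the P14 samples has the highest sum of all samples.

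The remaining marker lists held no member. At P14 the oligodendrocyte lineage markers summed to 465 to 533 CPM, between P8 (311 to 459) and P21 (557 to 1166). Inhibitory interneuron markers summed to 162 to 223 CPM with Slit1 at 0 in all P14 samples, vascular markers to 82.1 to 114, blood cell markers to 192 to 414 and microglia markers to 7.42 to 24.6 with Tmem119 at 0.

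Features that the rule did not use are given beside those of all genes at the minimum level. Of the 66, 60 were protein coding (90.9%, against 95.8%), the median exon length was 3966 bases against 4709, and 15 had exons that overlap another counted gene (22.7% against 29.3%), 13 of them on the other strand. Chromosome 5, singled out after the values were seen, carried 10 members (15.2%, against 6.46% of genes at the minimum level), among them Rheb, Erp29, Sparcl1, Lrpap1, Tmem175, P2rx4, Fzd1 and Cux2. Values at P14 itself were used by the rule and are a description. The median P14 mean of the members was 106 CPM (range 10.7 to 3296). Within P14 the median coefficient of variation was 11.4%, from 1.38% in Tspan14 to 44.3% in 4930570G19Rik, against 22.0% over all genes at the minimum level, a difference that the rule itself favours.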

How the data were processed

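RNA of laser-captured PCs was sequenced by the authors in 15 samples, 3 replicates at each of 5 ages, as paired-end libraries made with the SMARTer Ultra Low RNA and NEBNext kits. The authors trimmed adapters (Cutadapt 1.2.1), used GSNAP (2012-07-20) for alignment to GRCm38/mm10, dropped reads that did not map uniquely, and ran HTSeq (0.5.3p9) on reads lying fully within a gene, and the deposited values are therefore raw counts for Ensembl genes. Reads mapping to several places are lost, which lowers genes with near-identical copies, and the annotation release and strand setting are not given in the sources used here. Tallies of reads outside genes (18.2% to 31.0% per sample) were kept out of the totals. They differed by age, with 25.3% to 31.0% at P0, 21.5% to 22.5% at P4 and 22.8% to 24.7% at P8. At P14 they were 18.2% to 20.5% and at P21 18.7% to 20.7%.

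Sample titles gave the age and the replicate number. CPM used the summed counts on genes, and 3 counts correspond to 0.384 to 0.880 CPM. Contrasts between P0, P8 and P21 came from edgeR (4.0.16, R 4.3.3) quasi-likelihood F tests with TMM scaling and filterByExpr on the 12 samples outside P14, with Benjamini-Hochberg adjustment over 13906 genes and a threshold of 0.05. Fold changes are thus on another scale than the CPM shown and can differ from CPM ratios in size or sign. For Slc1a6 the mean CPM was 913 at P8 and 823 at P21, while the log2 fold change of P21 against P8 was 0.09. DESeq2 (1.42.0), limma-voom (limma 3.58.1), other scalings, no filter, a replicate block, all 15 samples and leaving out samples were alternatives. P-values set a difference between ages against the spread between samples that the study calls biological replicates. Averaged over genes, that spread was far larger than the counting noise of reads, with a chi-square per gene of 18.4 to 56.5 between replicates. This average leans on genes with many counts and treats PCR copies as independent, so it does not measure the noise of low genes. Positions and exon lengths are from GENCODE M21 (GRCm38), which holds 36723 of the 38561 identifiers, and promoters from RefSeq.

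The members, gene lists and tests were chosen with earlier results of these data known. Genes named were the 15 with the largest margin, the 10 with the highest P14 level, those in a listed group, the 5 with the largest change in each contrast and direction, and 5 on each side of the threshold. Other genes named within the role groups were chosen after their values were seen.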

Additional observations from a re-analysis of the deposited data

How the results depend on the processing

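The number of genes chosen stayed within 1.5 times of 66 with TMM scaling (73), DESeq2 size factors (69), a minimum of 5 CPM (73) or 20 CPM (60), although TMM and DESeq2 scaling exchanged members. A lowest P14 sample at least 1.5 times the highest other left 4. Leaving out 1 of the 15 samples gave 67 to 164 genes, with the rise past 1.5 times on leaving out P14 replicate 1 (141), 2 (164) or 3 (126) or P21 replicate 3 (123), and leaving out a replicate number at every age gave 250 to 286. Those alternatives leave fewer samples for a gene to pass.

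Members that rose from P0 to P8 numbered 17 to 20 under the 7 other fits and 14 to 19 with each sample left out. From P8 to P21 they numbered 3 to 5 under 6 other fits, 8 with limma-voom, and 1 to 4 with a sample left out, the count being 1 without P8 replicate 1 or 3 or any P21 sample and 2 without P8 replicate 2. Limma-voom was also the only one of these fits with a member that fell, 1 from P8 to P21. From P0 to P21 they numbered 28 to 38 under the 7 other fits and 26 to 34 with a sample left out. The shares of all genes called in these fits are not given here, so the counts do not show a difference from the background. The fit on all 15 samples also includes the P14 samples that the rule used. Among the 40 members kept under all 3 scalings, 10 rose from P0 to P8 and 16 from P0 to P21, where fewer genes are counted. In the same fit 4.44% and 10.8% of all genes tested rose. The cause of the other differences was not tested.

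Samples with the same replicate number did not deviate together over the genes as a whole (mean r = -0.0033 over 30 pairs, the highest 0.047). The labels do not say whether a number is shared between ages, and this correlation cannot show a shared batch that affects few genes. The replicate block gave 18, 3 and 30 members that rose in the 3 contrasts, in place of 18, 4 and 33, again without shares of all genes. Of 551 values of single genes under alternatives, 501 remained past the threshold in the same direction, 50 in 14 results lost significance and 0 changed direction. With 3 samples per age and a biological coefficient of variation of 0.731, small changes of low genes could not be resolved.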
